A study of Mus musculus with 6 samples.

Results

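Endothelial and blood-nerve barrier genes were followed in dorsal root ganglia, which hold the cell bodies of sensory neurons. The 10 genes were chosen by symbol as pan-endothelial markers and barrier genes, out of 22087 genes in the deposited table, and all 10 were among the 17759 genes that passed the filter on low counts. They are Pecam1, Cdh5 and Cldn5 of endothelial junctions, the growth factor receptors Kdr, Flt1 and Tek, the clotting protein gene Vwf, and the transporters Slco1a4, Abcb1a and Slc2a1. Both groups were mice aged 3 months with loxP-flanked Kif2a alleles (Kif2a fl/fl). The 3 control libraries have that genotype alone. The 3 libraries of the other group, called the knockout here, are from mice that also carry Avil Cre (Kif2a fl/fl; Avil Cre), in which the advillin gene's control sequences drive Cre chiefly in sensory neurons, so that Kif2a is deleted conditionally. Blood vessel cells are not the intended target of that Cre. Nothing in the labels ties libraries to individual animals, and p-values therefore cover the spread between libraries, part of which may be technical.

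Endothelial cells line blood vessels, and in brain and nerve they also form a barrier. They are joined by tight junctions and take up or expel solutes through carriers in their membranes. In the dorsal root ganglion the vessels among the neuron cell bodies are known to be leakier than those of the nerve trunk, where the endothelium and the perineurium, the cell sheath around nerve bundles, together form the blood-nerve barrier. The question taken up here is whether transcripts of vessels and their barrier differed when Kif2a, a microtubule-depolymerising kinesin, was targeted in the neurons.

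The libraries held between 21683083 and 31626625 counts. Levels are given as CPM, counts scaled to library totals with TMM factors, and values for the 3 libraries of a group follow the order of their replicate numbers. Kif2a was at 86.4, 80.4 and 89.999 CPM in the control libraries and at 69.8, 66.5 and 67.4 CPM in the knockout libraries, without overlap (log2 fold change -0.33 ± 0.10, edgeR adjusted p 1). Avil was at 562, 593 and 592 CPM in control and at 239, 365 and 256 CPM in the knockout. Its log2 fold change was -1.02 ± 0.17 (edgeR adjusted p 0.444, DESeq2 adjusted p 3.47e-05). Only the knockout carries Avil Cre, so that allele and the targeting of Kif2a cannot be told apart here. Knockout replicate 1 was the highest library for genes of most cell types other than neurons. Replicate 2 of that group was the lowest for fibroblast, macrophage, Schwann cell and lymphocyte genes. Between libraries, the chi-square of counts per degree of freedom was 81.8 for knockout replicates 1 and 2. It was 59.1 for replicates 2 and 3, and 33.1 for replicates 1 and 3. Of all 17759 genes tested, 23.8% had their highest level in knockout replicate 1. Each of the 10 genes and each vessel list below is therefore also given without replicate 1. The lists were not refitted without replicate 2.

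The endothelial genes were present in every library, with no count below 187, and none of the 10 passed the test between groups. Genes were called at a Benjamini-Hochberg adjusted p under 0.05 in edgeR's quasi-likelihood test over all genes, which passed 0.0225% of genes (4 of 17759, none of them higher). DESeq2 called 0 of the 10 as well, beside 0.175% of all genes. At an unadjusted edgeR p under 0.05 the count was 1 of 10 (Slco1a4, higher), against 4.67% of all genes, or 1.58% counting higher genes alone. Of the 10 genes 8 had a fitted value above 0, where 51.6% of all genes did. Their median log2 fold change was 0.12, and the median over all genes was 0.01. In knockout replicate 1, 8 of the 10 genes had their highest level, against 23.8% of all genes. Without that library the median of the 10 genes was -0.024. In whole-ganglion RNA, fewer cells of a type and less RNA per cell cannot be told apart.

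**Figure D1:**
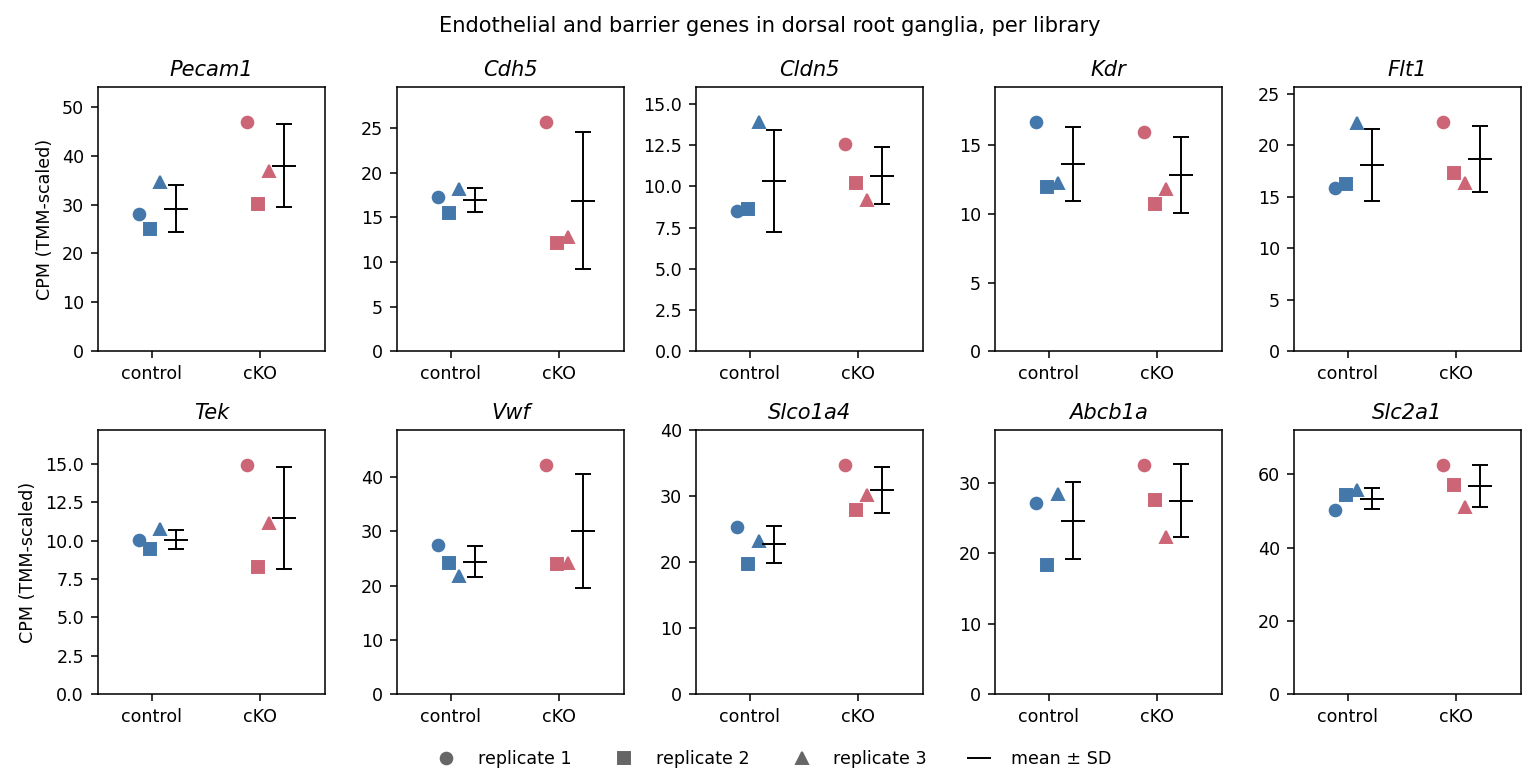
CPM of each of the 10 genes (vertical axis, from 0) in the 3 control (blue) and 3 knockout (red) libraries, with symbols for the replicate and bars for mean ± SD. Slco1a4 is the panel in which the groups are apart, with control libraries at 19.7 to 25.3 CPM and knockout libraries at 27.8 to 34.8 CPM.

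Among the junction genes, Pecam1 (chr11:106654217-106750628, minus strand; GRCm38, GENCODE M21, as for all positions of genes) encodes CD31, an adhesion molecule at contacts between endothelial cells. It was at 28.0, 25.0 and 34.6 CPM in the control libraries and at 47.0, 30.1 and 36.8 CPM in the knockout libraries. Replicates 1 and 3 of the knockout were above all control libraries, but replicate 2 lay within their range. Its log2 fold change of 0.38 ± 0.18 (SE) had a 95% interval from -0.043 to 0.80 and an edgeR adjusted p of 1. Leaving out knockout replicate 1 gave 0.21, the lowest value with any library left out.

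Cdh5 (chr8:104101625-104144511, plus strand) encodes VE-cadherin, the cadherin of endothelial adherens junctions. It was at 17.3, 15.5 and 18.2 CPM in control and at 25.8, 12.1 and 12.8 CPM in the knockout. The knockout libraries lay on both sides of the control libraries, with replicate 1 above all 3 and replicates 2 and 3 below all 3. The coefficient of variation was 8.01% among control libraries and 45.6% among knockout libraries, the widest of the 10 genes. Its log2 fold change of -0.01 ± 0.28 (edgeR adjusted p 1) had an interval from -0.66 to 0.64. Without knockout replicate 1 it was -0.44 (edgeR adjusted p 0.469), and without replicate 2 of that group it was 0.19 (edgeR adjusted p 0.860).

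Cldn5 (chr16:18776847-18778262, plus strand) encodes claudin-5, the main tight junction claudin of brain and nerve endothelium. It was at 8.52, 8.60 and 13.9 CPM in control and at 12.6, 10.2 and 9.16 CPM in the knockout. Control replicate 3 was the highest library, the other control libraries were the lowest, and all knockout libraries lay between them. The log2 fold change was 0.04 ± 0.23 (edgeR adjusted p 1), with an interval from -0.48 to 0.56. It was 0.32 without control replicate 3 and -0.087 without either control replicate 1 or knockout replicate 1.

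The receptors read growth signals that maintain vessels. Kdr (chr5:75932827-75978458, minus strand) encodes VEGFR2, the main signalling receptor for VEGF-A. It was at 16.7, 11.9 and 12.3 CPM in control and at 15.9, 10.7 and 11.9 CPM in the knockout. In each group replicate 1 was well above the others, and the groups overlapped (log2 fold change -0.09 ± 0.20, edgeR adjusted p 1). Without control replicate 1 the fold change was 0.082, and without knockout replicate 1 it was -0.26.

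Flt1 (chr5:147561604-147726011, minus strand) encodes VEGFR1, which also occurs as a soluble form that traps VEGF. It was at 15.9, 16.2 and 22.1 CPM in control and at 22.3, 17.3 and 16.3 CPM in the knockout. Control replicate 3 and knockout replicate 1 were high together, and the other 4 libraries lay within 15.9 to 17.3 CPM. The log2 fold change was 0.04 ± 0.18 (edgeR adjusted p 1), and it was -0.097 without knockout replicate 1 and 0.22 without control replicate 3.

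Tek (chr4:94739289-94874976, plus strand) encodes TIE2, the receptor for angiopoietins that keep vessels quiescent. It was at 10.03, 9.44 and 10.7 CPM in control and at 14.9, 8.27 and 11.2 CPM in the knockout. Knockout replicate 1 was the highest and replicate 2 the lowest of the 6 libraries. Its log2 fold change was 0.19 ± 0.22 (edgeR adjusted p 1), or -0.040 without knockout replicate 1.

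Vwf (chr6:125546774-125686679, plus strand) encodes von Willebrand factor, which endothelial cells store and release to catch platelets. It was at 27.5, 24.1 and 21.7 CPM in control and at 42.3, 24.0 and 24.1 CPM in the knockout. Replicates 2 and 3 of the knockout lay within the control range and replicate 1 lay above it. The log2 fold change of 0.30 ± 0.23 (edgeR adjusted p 1) was -0.0087 without knockout replicate 1.

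**Figure D2:**
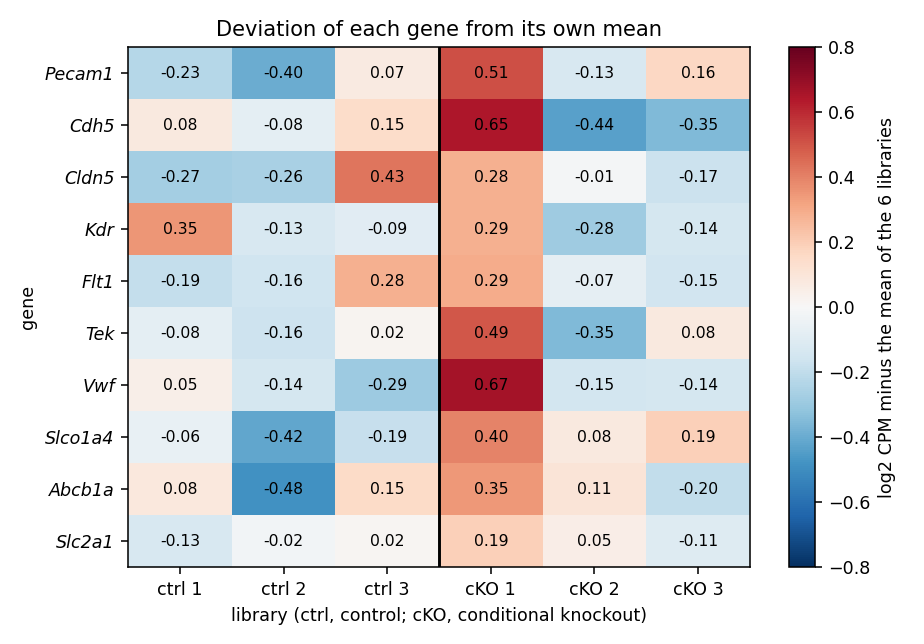
Log2 CPM of each gene minus its own mean over the 6 libraries (colour and printed value), with control libraries left of the line and knockout libraries right of it. Knockout replicate 1 is above the mean for all 10 genes, from 0.19 for Slc2a1 to 0.67 for Vwf.

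Slco1a4 (chr6:141805440-141856199, minus strand) encodes an organic anion transporting polypeptide that carries conjugated steroids and drugs across brain endothelium. It was at 25.3, 19.7 and 23.2 CPM in the control libraries and at 34.8, 27.8 and 30.2 CPM in the knockout libraries. All 3 knockout libraries were above all 3 control libraries. Among the 10 genes this was the case for 1, and across all genes the groups did not overlap for 8.66%, with the knockout above for 3.96%. The means were 22.8 ± 2.80 and 30.9 ± 3.53 CPM (SD, n = 3). The knockout mean was 136% of control. On the log2 scale the difference was 0.44 ± 0.14 (SE), with an interval from 0.13 to 0.76, an edgeR p of 0.0109 before and 1 after adjustment. DESeq2 gave an adjusted p of 0.591. An exact permutation test (two-sided) gave 0.1, which is the lowest p possible with 3 libraries a group.

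The Slco1a4 value held its direction with each library left out. It ranged from 0.36, without either control replicate 2 or knockout replicate 1, to 0.52 without control replicate 1. The smallest adjusted p among these edgeR fits was 0.196, without knockout replicate 2. In the authors' deposited table Slco1a4 has a log2 fold change of 0.44 and a false discovery rate from fdrtool of 0.0463, a rate under 0.05 that 1.18% of its genes reach. It does not carry the mark for passing both that rate and a fold of 1.5, which 0.656% of genes carry. The other 9 genes have rates from 0.317 to 1 in the authors' deposited table.

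Abcb1a (chr5:8660077-8748575, plus strand) encodes P-glycoprotein, the pump that returns many drugs to the blood. It was at 27.2, 18.3 and 28.5 CPM in control and at 32.6, 27.6 and 22.3 CPM in the knockout. Control replicate 2 was the lowest and knockout replicate 1 the highest, and the other 4 libraries interleaved. The log2 fold change was 0.16 ± 0.20 (edgeR adjusted p 1), or -0.0074 without control replicate 2. It was 0.030 without knockout replicate 1, its highest library. Of the 5459 stretches of 50 bases in its annotated transcripts, 17.6% also occur in transcripts of the related pumps Abcb1b and Abcb4, so part of its reads may be split between them. An unnamed transcript on the opposite strand covers 10.1% of its exon bases, and whether the counting used strand is not given in the sources used here.

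Slc2a1 (chr4:119108711-119137983, plus strand) encodes GLUT1, the glucose carrier of barrier endothelium and of perineurial cells, and many other cells also make it. It was at 50.3, 54.2 and 55.6 CPM in control and at 62.6, 57.0 and 51.1 CPM in the knockout. Knockout replicates 1 and 2 were above all control libraries, and replicate 3 was between control replicates 1 and 2. Its log2 fold change was 0.09 ± 0.11 (edgeR adjusted p 1), with the narrowest interval of the 10 genes, from -0.16 to 0.35. It was 0.030 without knockout replicate 1 and 0.17 without replicate 3.

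**Figure D3:**
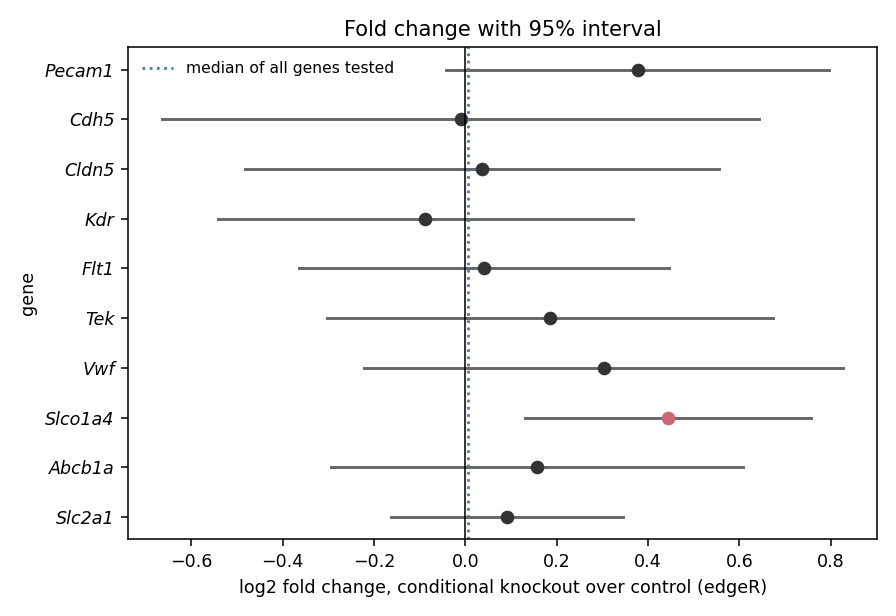
Log2 fold change of each gene, knockout over control (horizontal axis), with its 95% interval from edgeR. The dotted line is the median of all genes tested, and the red point is the gene whose groups do not overlap, Slco1a4 at 0.44, whose interval from 0.13 to 0.76 lies above 0.

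Per kilobase of annotated exon, the order of the control levels ran from Slc2a1 at 15.2 ± 0.790 CPM per kb (SD, n = 3) to Flt1 at 1.34 ± 0.259 CPM per kb. Cldn5 was at 7.31 ± 2.19, Pecam1 at 4.69 ± 0.788, Abcb1a at 4.50 ± 1.01, Cdh5 at 4.04 ± 0.323 and Slco1a4 at 3.55 ± 0.437 CPM per kb. Tek was at 2.14 ± 0.137, Vwf at 1.52 ± 0.181 and Kdr at 1.51 ± 0.296 CPM per kb. Slc2a1 was the only gene whose range over the 6 libraries lay apart from that of its neighbour in this order. Cldn5 was nevertheless above Pecam1 in all 6 libraries, Slco1a4 above Tek in 6, and Tek above Vwf in 6. Pecam1 and Abcb1a, Abcb1a and Cdh5, Cdh5 and Slco1a4, Vwf and Kdr, and Kdr and Flt1 each kept their order in 4 of 6. In the knockout Slco1a4 was at 4.82 ± 0.551 and Cdh5 at 4.02 ± 1.83 CPM per kb.

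To set barrier genes against the amount of endothelial transcript, the mean log2 CPM of Pecam1, Cdh5, Kdr, Flt1, Tek and Vwf was subtracted from that of each barrier gene. That mean was 4.19, 4.01 and 4.21 in control and 4.67, 3.95 and 4.10 in the knockout, so knockout replicate 1 was the highest and replicate 2 the lowest. Relative to it, Slco1a4 was at 0.48, 0.30 and 0.33 (log2) in control and at 0.45, 0.85 and 0.82 in the knockout. Replicates 2 and 3 of the knockout were above all control libraries, and replicate 1 lay among them. The difference between groups was 0.34 ± 0.14 (SE of the difference; exact two-sided permutation p 0.2, 0.8 adjusted over the 4 barrier genes). It was 0.47 without knockout replicate 1. For Abcb1a, Slc2a1 and Cldn5 the differences were 0.063 ± 0.21, -0.016 ± 0.19 and -0.038 ± 0.24, each with overlapping groups and an exact permutation p of at least 0.9. These differences took the opposite sign in some fits with 1 library left out: Abcb1a was at -0.074 without control replicate 2 and -0.093 without knockout replicate 2 (0.15 without knockout replicate 1), Slc2a1 at 0.059 without control replicate 2 and 0.13 without knockout replicate 1, and Cldn5 at 0.16 without control replicate 3 and 0.053 without knockout replicate 1.

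**Figure D4:**
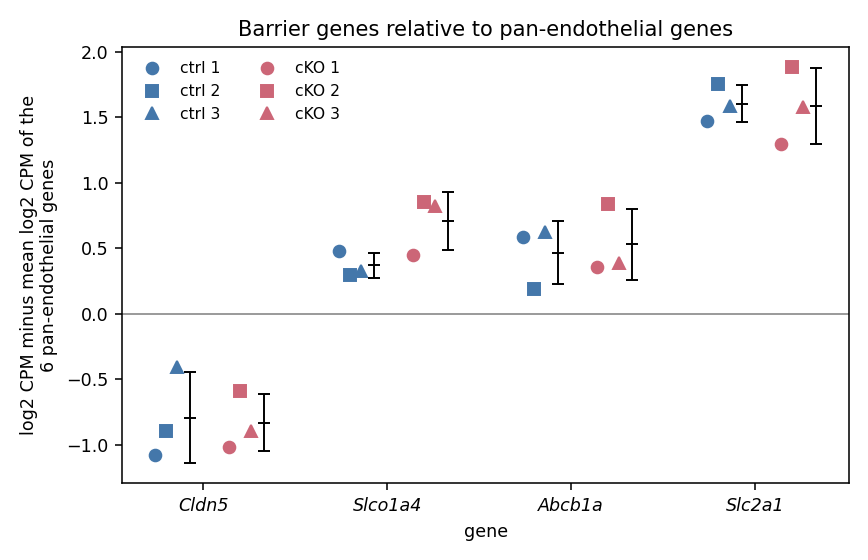
Log2 CPM of 4 barrier genes minus the mean log2 CPM of the 6 pan-endothelial genes (vertical axis), per library, with mean ± SD. Slco1a4 in knockout replicates 2 and 3 is at 0.85 and 0.82, above its control libraries at 0.30 to 0.48, while replicate 1 at 0.45 is not.

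Sequence before the transcription start of the 10 genes was also looked at, as a description only. RefSeq (GRCm38.p6) gave such sequence for 7 of them, Slco1a4, Flt1, Kdr, Tek, Cldn5, Slc2a1 and Abcb1a, and none was taken for Pecam1, Cdh5 and Vwf. Both strands of the 250 bases before the start were searched. AGGAAG is a core of sites for ETS factors such as ERG, which endothelial genes use. AGATAA is a site of the GATA factors. ACGTG is the core of the hypoxia response element, and none of the 3 motifs contains another. Slco1a4, Flt1 and Abcb1a held AGGAAG, that is 3 of 7, where 29.5% of all 32851 promoters did. None held AGATAA, present in 9.99% of all promoters, and Slc2a1 alone held ACGTG, present in 16.6%. The RefSeq start of Abcb1a lies 93.0 kb before the start of the gene in GENCODE, so its window may not be the promoter in use here. The promoters of Slco1a4 and Flt1 are shown for their AGGAAG matches and that of Slc2a1 for its ACGTG match, with matches on either strand in capitals, 5′ to 3′ on the gene's strand. They lie at chr6:141856221-141856470 (minus strand), chr5:147726012-147726261 (minus strand) and chr4:119108495-119108744 (plus strand).
Slco1a4: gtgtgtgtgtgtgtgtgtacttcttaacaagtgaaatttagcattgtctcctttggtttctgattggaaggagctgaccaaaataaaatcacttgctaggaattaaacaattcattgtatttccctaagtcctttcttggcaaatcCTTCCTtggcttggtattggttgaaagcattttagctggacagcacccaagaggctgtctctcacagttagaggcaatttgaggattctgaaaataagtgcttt
Flt1: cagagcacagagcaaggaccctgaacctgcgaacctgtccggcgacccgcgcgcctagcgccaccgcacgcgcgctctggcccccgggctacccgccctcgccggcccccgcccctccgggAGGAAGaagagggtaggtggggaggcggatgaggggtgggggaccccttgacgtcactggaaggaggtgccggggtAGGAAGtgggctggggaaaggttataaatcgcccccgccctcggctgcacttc
Slc2a1: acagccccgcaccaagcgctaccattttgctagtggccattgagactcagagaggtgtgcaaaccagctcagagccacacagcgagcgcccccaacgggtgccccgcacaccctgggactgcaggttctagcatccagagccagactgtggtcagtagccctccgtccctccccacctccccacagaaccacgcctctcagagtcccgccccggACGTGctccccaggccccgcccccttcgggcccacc
The Slco1a4 match is on the opposite strand and so reads CTTCCT, and both Flt1 matches are on the gene's own strand. A match of letters is no evidence of binding, and these data hold no measure of it.

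Other genes of the same cells and of the barrier gave the setting of these values. In a list of 25 further pan-endothelial genes, all tested, 0 passed in either direction (4 of 17759 genes, 0.0225%, passed overall); 19 had a fitted value above 0 and the median was 0.19. At an unadjusted edgeR p under 0.05, 3 of them were higher, where 1.58% of all genes were. Sox17, an arterial transcription factor, was at 3.69, 3.69 and 5.46 CPM in control and at 6.05, 8.19 and 5.52 CPM in the knockout, just without overlap (log2 fold change 0.62 ± 0.25, edgeR adjusted p 1). Adgrl4, an adhesion receptor of vessel sprouts, was at 11.2, 8.78 and 11.9 CPM and at 17.6, 13.6 and 12.6 CPM (0.45 ± 0.19). Emcn, the sialomucin endomucin of capillaries and veins, was at 18.3, 17.5 and 19.8 CPM and at 32.4, 17.6 and 29.2 CPM, with knockout replicate 2 among the controls (0.51 ± 0.21). Of the 25 genes, 22 were highest in knockout replicate 1, against the 23.8% of all genes given above. Without that library 10 were above and 15 below 0 and the median was -0.059, with Sox17 at 0.69, Adgrl4 at 0.31 and Emcn at 0.35.

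Of 33 further barrier genes 31 were tested and 0 passed; 19 were above and 12 below 0, with a median of 0.06, and 0 had an unadjusted edgeR p under 0.05. Foxq1 and Foxf2 were too low to be tested. Mean control levels in this list reached 471 CPM for Bsg, 151 CPM for Tfrc and 116 CPM for Slc3a2. Pecam1, the highest of the 6 pan-endothelial genes, was at 29.2 CPM. Which cells of the ganglion made the transcripts of this list was not tested. The efflux pump Abcg2 was at 147, 103 and 135 CPM in control and at 164, 142 and 193 CPM in the knockout, with overlap at knockout replicate 2 (0.38 ± 0.17, edgeR adjusted p 1). Ly6c1, a surface marker of capillary endothelium that is also on some leukocytes, was at 0.39 ± 0.21 on the log2 scale and the transferrin receptor gene Tfrc at 0.16 ± 0.12. The lipid carrier gene Mfsd2a, which limits transcytosis across the barrier, was at 29.1 ± 2.44 CPM in the control libraries and 31.1 ± 1.77 CPM in the knockout (SD, n = 3). Plvap, which forms the diaphragms of leaky vessels, was at 13.4 ± 1.65 and 15.1 ± 8.23 CPM. With knockout replicate 1 left out, the list had 10 genes above and 21 below 0 and a median of -0.18, with Abcg2 at 0.39, Ly6c1 at 0.26, Mfsd2a at 0.14 and Plvap at -0.33. Mfsd2a and Plvap were chosen after their values were seen.

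Growth signals to vessels gave 0 passing genes of 21 tested, with 10 above and 11 below 0 and a median of -0.05. At an unadjusted edgeR p under 0.05, 2 were lower, where 3.09% of all genes were. Without knockout replicate 1 the median was -0.14, with 6 above and 15 below 0. At an unadjusted edgeR p under 0.05, 5 were then lower and 0 higher, where 973 of 17759 genes were lower. Apln, the peptide apelin made by sprouting endothelium, was at 1.73, 3.51 and 2.33 CPM in control and at 1.42, 1.32 and 1.54 CPM in the knockout (log2 fold change -0.82 ± 0.31, edgeR adjusted p 1). Plxnd1, a semaphorin receptor, was at 91.1, 118 and 104 CPM and at 87.4, 86.3 and 78.1 CPM (-0.31 ± 0.13). For both genes every knockout library was below every control library. Vegfb, a ligand of VEGFR1, was at -0.30 ± 0.17 on the log2 scale. Vegfa, the ligand of VEGFR2 and a gene chosen after its values were seen, was at 53.2 ± 9.71 CPM in the control libraries and 61.3 ± 8.32 CPM in the knockout (SD, n = 3), with overlapping groups.

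Vessel zone markers, which tell arteries, capillaries and veins apart, had 0 passing genes of 15 tested. Of the 15, 12 were above 0, where 51.6% of all genes were, and the median was 0.14. At an unadjusted edgeR p under 0.05, 1 was higher, against 1.58% of all genes. Car4, a carbonic anhydrase on capillary endothelium, was at 5.52, 5.09 and 4.91 CPM in control and at 9.67, 6.12 and 9.76 CPM in the knockout. Its groups did not overlap (log2 fold change 0.72 ± 0.22, unadjusted edgeR p 0.0101, adjusted p 1). The adhesion molecule gene Icam1 was at 7.06 CPM in knockout replicate 1 and between 2.36 and 3.30 CPM in all other libraries. Gja5 and Gja4, connexins of arteries, were at 0.55 ± 0.56 and 0.25 ± 0.35 on the log2 scale. With knockout replicate 1 left out, the list had 4 genes above and 11 below 0 and a median of -0.091; Car4 was then at 0.63, Icam1 at 0.12, Gja5 at -0.083 and Gja4 at 0.46. Sele, a selectin of inflamed endothelium, was too low to be tested.

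Lymphatic vessel genes were also counted, since they share several endothelial markers. Flt4 is also in the list of growth signals above. Of 6 tested genes 0 passed and 4 were below 0, with a median of -0.34, and 1 was lower at an unadjusted edgeR p under 0.05, against 3.09% of all genes. Without knockout replicate 1 the median was -0.45, Mmrn1 was at -1.66 (edgeR adjusted p 0.171) and Flt4 at -0.71. The lymphatic regulator gene Prox1 was too low to be tested. Mmrn1, a multimerin of lymphatic endothelium that platelets also hold, was at 2.78, 3.86 and 2.46 CPM in control and at 1.19, 1.08 and 0.813 CPM in the knockout. Every knockout library was below every control library (log2 fold change -1.56 ± 0.30, edgeR adjusted p 0.628). With DESeq2 it passed, at an adjusted p of 0.0418, the one gene of the vessel, mural and perineurial lists to do so. DESeq2 passed 0.175% of all genes. The counts of Mmrn1 were low, at 61, 88 and 76 in control and 26, 26 and 19 in the knockout. Flt4, which encodes VEGFR3, was at 2.42, 1.84 and 2.10 CPM and at 1.65, 1.20 and 1.37 CPM, again without overlap (-0.59 ± 0.27, edgeR adjusted p 1). The chemokine gene Ccl21a was at -0.91 ± 0.50 and Reln at 0.19 ± 0.18 on the log2 scale, both with overlapping groups; Reln was at 0.027 without knockout replicate 1.

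Mural cells, the pericytes and smooth muscle around vessels, had 0 passing genes of 15, with 11 above 0 and a median of 0.14, and 0 at an unadjusted edgeR p under 0.05. Their summed level was 407 to 530 CPM in control and 375 to 679 CPM in the knockout, highest in replicate 1. Acta2, smooth muscle actin, was at 71.7 CPM in that library and between 13.5 and 27.0 CPM in the other 5. Rgs5, a pericyte gene, was at 49.2, 201 and 63.6 CPM in control and at 198, 175 and 72.2 CPM in the knockout, high in 3 libraries from both groups. Without knockout replicate 1 the mural list had 4 genes above and 11 below 0 and a median of -0.42, with Acta2 at -0.66 and Rgs5 at 0.26. In that fit 0 mural genes passed. At an unadjusted edgeR p under 0.05, 8 of the 15 were lower and 0 higher, where 973 of 17759 genes were lower. Perineurial genes had 0 passing of 10, with 4 above and 6 below 0 and a median of -0.02; 1 was lower at an unadjusted edgeR p under 0.05, against 3.09% of all genes. Once knockout replicate 1 was left out, all 10 were below 0, with a median of -0.50, and 0 passed. At an unadjusted edgeR p under 0.05, 7 of these 10 were then lower and 0 higher, beside the same 973 of all genes. Moxd1, a monooxygenase-like gene in that list, was at 50.4, 61.9 and 62.5 CPM and at 36.8, 49.98 and 41.3 CPM, without overlap (-0.45 ± 0.14, edgeR adjusted p 1). The tight junction gene Cldn1 of the perineurium, chosen after its values were seen, was at 22.6 ± 4.37 and 24.7 ± 15.7 CPM (SD, n = 3), and its log2 fold change of 0.13 was -0.50 without knockout replicate 1.

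Within the knockout group, markers of several other cells were highest in the same library as the endothelial genes, and within control they did not all share an order. The list score is the mean, over tested members, of log2 CPM minus the gene's mean over the 6 libraries. For the 6 pan-endothelial genes it was 0.00, -0.18 and 0.02 in control and 0.48, -0.24 and -0.09 in the knockout. Fibroblast genes scored 1.14, -0.98 and -0.46 in the knockout replicates, macrophage genes 0.78, -0.85 and 0.13, and Schwann cell genes 0.67, -0.58 and -0.44. In control fibroblast genes scored 0.16, 0.08 and 0.06 and Schwann cell genes 0.20, -0.18 and 0.32. Macrophage genes scored -0.17, 0.15 and -0.03 in control and were highest in replicate 2, where the pan-endothelial score was lowest. Neuron genes scored -0.30, 0.15 and -0.03 in the knockout, the opposite order to the pan-endothelial genes, and 0.10, -0.05 and 0.14 in control, the same order. Over the 9 fibroblast genes the summed level was 3890 CPM in knockout replicate 1, 997 CPM in replicate 2 and 1744 to 2164 CPM in control. The 12 neuron genes summed to 13023 CPM in knockout replicate 1, the lowest of the 6 libraries, and 18753 CPM in replicate 2, the highest. Blood genes, which include haemoglobins, summed to 1602 to 3508 CPM in control and 786 to 3637 CPM in the knockout.

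Spinal cord genes, whose tissue brings barrier vessels of its own, were below 0 in all 9 tested members, where 8593 of 17759 genes were. They summed to 135, 291 and 136 CPM in control and to 153, 54.7 and 53.7 CPM in the knockout. Control replicate 2 was thus well above the other control libraries, and knockout replicate 1 lay within the control range. The list of interferon-stimulated genes summed to 585 to 631 CPM in control and to 1242, 533 and 1142 CPM in the knockout libraries. Satellite glia genes summed to 1540 to 1841 CPM in control and 1392 to 1836 CPM in the knockout, and lymphocyte genes to 19.2 to 39.2 and 12.8 to 76.0 CPM. No gene in any of these lists was at 0 in all libraries, although Mog, Olig2 and Opalin of the spinal cord list were too low to be tested. Slco1a4 was above all control libraries in each knockout library. Relative to the pan-endothelial genes, however, its knockout replicate 1 at 0.45 lay among the control libraries at 0.30 to 0.48. The part of these cells in the endothelial values, Slco1a4 included, was not tested.

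**Figure D5:**
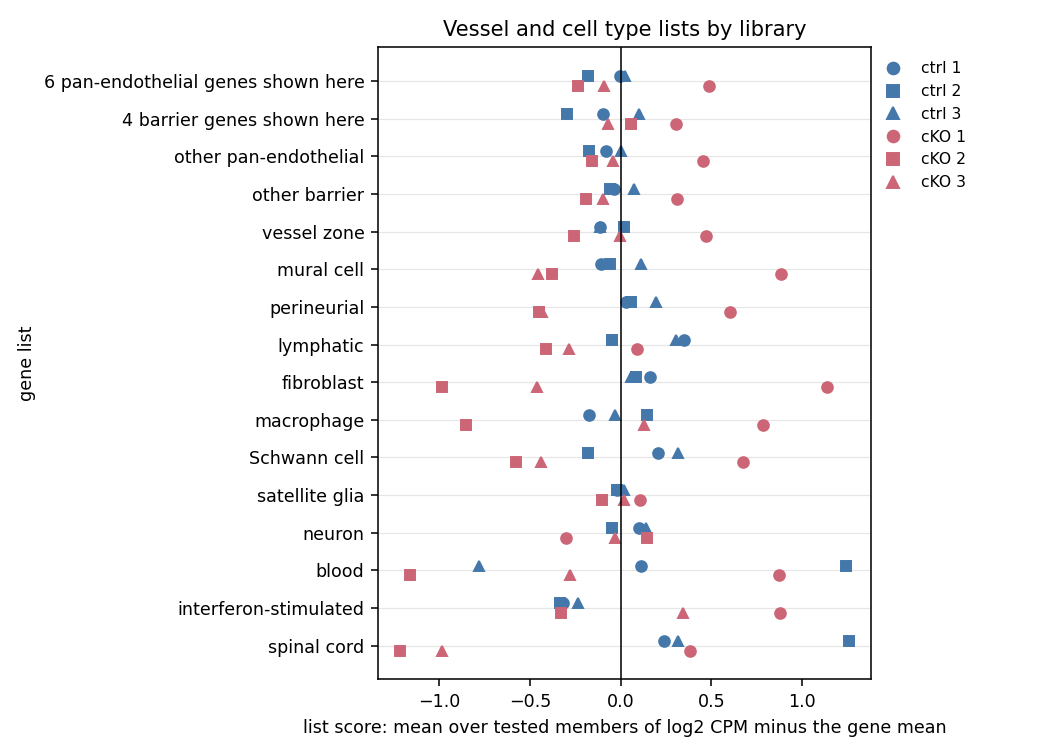
List scores (horizontal axis, log2) of vessel and cell type gene lists in the 6 libraries, control in blue and knockout in red, with symbols for the replicate. Knockout replicate 1 is the highest library for the pan-endothelial genes at 0.48 and for fibroblast genes at 1.14, and the lowest for neuron genes at -0.30.

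Genes were ranked by how closely their levels followed the 6 pan-endothelial genes. Those genes and the barrier genes set against them above were left out of the ranking, but genes of the further lists were not. The measure was the root mean square difference between centred log2 CPM values over the 6 libraries, among 12086 genes with a mean of at least 5 CPM. The closest were Sgce at 0.031, Septin10 at 0.036, Rcn1 at 0.047, Tax1bp3 at 0.053, Cavin3 and Pde7b at 0.057, and Ehd2 and Add3 at 0.058. Sgce, which encodes epsilon-sarcoglycan, was at 31.7, 27.8 and 33.2 CPM in control and at 45.5, 27.5 and 31.6 CPM in the knockout. The median over the 12086 genes was 0.289. Against the same profile Tek was at 0.089, Vwf at 0.16, Cdh5, Flt1 and Pecam1 at 0.17 and Kdr at 0.18, although these genes enter it. Slc2a1 was at 0.19, Abcb1a at 0.21, Slco1a4 at 0.22 and Cldn5 at 0.24.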

How the data were processed

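Poly(A) RNA of dorsal root ganglia was sequenced in 6 libraries, 3 per group, and each sample title gave its group and replicate. The deposited table holds whole read counts per gene symbol, per the file headers. Of tools and builds, cutadapt, STAR, DESeq2 and mm10 appear in the submitters' processing notes. No source used here gives versions, the counting program or its strand setting. The authors also deposited normalized signal and regularized log2 values, with a p-value and an fdrtool rate per gene. Those rates and the authors' fold changes are quoted as theirs, and only the raw counts entered the tests.

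The test was that of edgeR 4.0.16 (R 4.3.3), run after filterByExpr (minimum count 10, leaving 17759 of 22087 genes), TMM scaling and a quasi-likelihood fit with robust dispersion and no covariate. P-values were Benjamini-Hochberg adjusted over all genes tested. Standard errors come from the F statistic, and 95% intervals from its degrees of freedom. Log2 CPM values use a prior count of 2. The alternatives were DESeq2 1.42.0, limma 3.58.1 (limma-trend, pseudocount 1), other scalings and filters, the replicate number as a block and each library left out. The scripts were tested on simulated data. Positions and exon lengths are from GENCODE M21 on GRCm38.

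The genes, the lists and the rule for naming genes were chosen with earlier results of these data known. All 10 endothelial genes are named, with up to 4 genes of smallest p from each vessel list, up to 2 from each other list and the 8 genes most alike. Not all genes the rule allows are described.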

Additional observations from a re-analysis of the deposited data

How the results depend on the processing

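Over 13 alternative fits none of the 10 endothelial genes passed the threshold. Of their 130 values, 112 kept the direction of the reported value and 18 turned it. Slco1a4, Pecam1 and Slc2a1 never turned, although all 10 genes alike had an adjusted p near 1 in the main edgeR fit. Outside the fits with a library left out, only Cdh5 turned, to 0.00015 with DESeq2, 0.026 with upper quartile scaling and 0.016 at a mean of at least 5 CPM. The difference of Abcb1a relative to pan-endothelial genes turned to -0.0016 against the longer pan-endothelial list. The cause was not tested.

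The count of all genes called, 4 in edgeR, was 31 with DESeq2, 0 with the replicate block and 2 where genes needed a mean of 5 CPM. Left-out libraries gave 0 to 13 calls over all genes. They gave -0.024 to 0.24 for the median of the endothelial genes, which was 0.12 to 0.16 in the other alternatives. Ranges over left-out libraries were -0.0074 to 0.30 for Abcb1a, -0.44 to 0.19 for Cdh5, -0.087 to 0.32 for Cldn5, -0.097 to 0.22 for Flt1, -0.26 to 0.082 for Kdr, -0.040 to 0.38 for Tek and -0.0087 to 0.45 for Vwf. Relative to the pan-endothelial genes they were -0.093 to 0.15 for Abcb1a, -0.18 to 0.16 for Cldn5, -0.16 to 0.13 for Slc2a1 and 0.27 to 0.47 for Slco1a4.

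The labels do not say whether the replicate numbers pair the libraries. Deviations from the group means of same-numbered libraries correlated at -0.15, -0.25 and -0.13 across genes, and those of differently numbered libraries at -0.058 to 0.20. Within a group of 3 these deviations sum to 0, so the correlations cannot settle whether libraries were paired. With the replicate block Slco1a4 was at 0.44, and within pairs its difference relative to the pan-endothelial genes was 0.34 (exact sign-flip p 0.5; the smallest possible is 0.25).

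The medians of 4 lists turned without knockout replicate 1, an alternative chosen after seeing the data: pan-endothelial to -0.059, barrier to -0.18, vessel zone to -0.091 and mural to -0.42. The growth signal, lymphatic and perineurial medians stayed below 0, at -0.14, -0.45 and -0.50. How these medians would move without knockout replicate 2 was not tested. At an unadjusted edgeR p under 0.05 without that library, 1 pan-endothelial and 1 vessel zone gene were higher and 0 lower. For the barrier and lymphatic lists 2 genes each were lower and 0 higher. Some genes are in more than 1 list, so the counts of the lists are not independent. Flt4 is counted as lower in both the lymphatic and the growth signal list. Over all 17759 genes, 447 were higher and 973 lower.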

Other observations

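Genes related to the barrier transporters were also looked up, after the values above were seen. Abcb1b, the second mouse gene for P-glycoprotein, was at 2.60, 2.11 and 2.62 CPM in control and at 3.48, 4.18 and 3.30 CPM in the knockout. Its groups did not overlap, with a log2 fold change of 0.58 ± 0.23 (SE) and an edgeR adjusted p of 1. Abcb1a and Abcb1b share part of their sequence, and how reads were divided between them is not known. Slco1a5, a neighbour of Slco1a4 in the same gene family, was at 3.15, 2.15 and 2.42 CPM in control and at 2.11, 2.11 and 3.42 CPM in the knockout, with overlapping groups (-0.01 ± 0.29). Slc2a3, the glucose carrier of neurons, was at 77.8, 83.0 and 83.7 CPM in control and at 67.4, 86.8 and 84.1 CPM in the knockout, where replicate 1 was the lowest of the 6 libraries.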
